A study of Mus musculus with 8 samples.

Results

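The MP and TN subsets of CD8+ T cells from WT mice were compared across every gene expressed in the sorted cells. Of the 8 libraries in the series, 4 belong to this comparison: WT-TN 1 and 2 and WT-MP 1 and 2, chosen by their sample titles. All were sorted from mouse spleen by flow cytometry with antibodies to CD8, CD4, CD44 and CD122 after magnetic enrichment of CD8+ cells, and RNA came from aliquots of the sorted cells. WT is the genotype label and carries no further description, and neither TN nor MP is spelled out in the labels. The series' design text names the subsets TN and VM. Spleens were adult or neonatal, and the age behind each library, the number of mice pooled and the strain are not stated in the labels. The other libraries come from the same subsets of animals labelled mCre, whose allele the labels do not describe; they entered the fit only as groups of their own. A positive log2 fold change means higher in MP.

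Memory-phenotype CD8+ T cells are cells that carry high surface CD44 and CD122 although the animal was not deliberately immunized. They divide and survive on the cytokines IL-15 and IL-7, and they answer inflammatory cytokines faster than naive cells do. CD122 is the beta chain shared by the IL-2 and IL-15 receptors, and CD44 is a hyaluronan receptor that T cells raise after activation. Naive CD8+ T cells circulate through lymph nodes with low CD44, held in a quiet state by restraints on signalling from the T cell receptor.

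Transcripts of the sort markers followed the labels. Cd44 stood at 15.4 and 14.3 CPM in TN and 144 and 138 CPM in MP, in counts scaled to library size (CPM). Il2rb, which encodes CD122, was at 205 and 186 CPM in TN and 1374 and 1309 CPM in MP. The CD8 chains were abundant in every library, with Cd8a at 1615 and 1575 against 1742 and 1723 CPM and Cd8b1 at 1321 and 1378 against 1301 and 1302 CPM, whereas Cd4 had 3 counts over both TN libraries and 7 over both MP libraries. Total counts per library ranged from 13479586 to 23386348. Of markers of other cells, the summed level of 19 myeloid markers was between 46.17 and 72.91 CPM and that of 12 B cell markers between 24.11 and 28.73 CPM, with TN and MP libraries overlapping in the former. Of 16 tested myeloid markers 0 were called by edgeR, and of 7 tested B cell markers 1 was (Cd22, a sialic acid-binding inhibitory receptor, 0.0742 and 0.269 against 7.23 and 5.12 CPM). Without WT-TN replicate 1, these counts were 1 and 2. Plasma cell markers, 8 in all, summed to 36.43 and 43.58 CPM in TN and 55.84 and 57.5 CPM in MP, and 2 of 5 tested rose. The 15 NK cell and innate lymphoid markers summed to 167.7 and 147.6 CPM in TN and 436.5 and 459.3 CPM in MP, and 11 of 12 tested members rose. Eomes and Cd7, which CD8+ T cells also express, made up most of that sum. Of the defining genes, Ncr1 stood at 0 in both TN libraries and at 0.21 and 0.69 CPM in MP, Klrb1c at 0 and 0 against 2.05 and 2.74 CPM, and Il22 at 0 throughout. The list of gamma-delta, MAIT and NKT cell markers summed to 54.45 and 44.07 CPM in TN and 1379 and 1307 CPM in MP, most of it in MP from Cd163l1, a scavenger receptor gene (7.34 and 4.25 against 1179.7 and 1114 CPM). Its other 9 members summed to 47.11 and 39.82 CPM in TN and 199.6 and 193.5 CPM in MP. Of 7 tested, 4 rose and 2 fell (lower 1 with WT-MP replicate 1 left out), while Il17a and Il23r were at 0 in all libraries. Summed dendritic cell markers stood at 141.3 and 131.5 CPM in TN and 177.8 and 164.6 CPM in MP, and CD4 and regulatory T cell markers at 135.7 and 132.1 against 161.6 and 164.5 CPM. Thymocyte markers were lower in MP, at 630.7 and 631.9 against 483.9 and 433.9 CPM. The part of these other cells in the differences between the subsets was not tested. In bulk RNA, fewer cells of a type and less RNA per cell cannot be told apart.

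Both directions of change were common. Of 12313 genes tested, 1993 were higher and 1915 lower in MP at an adjusted p under 0.05, which is 16.2% and 15.6% of the genes tested. These shares are the background for every list below. In 64.1% of all genes tested the TN and MP libraries did not overlap, and the members named from each list were the called ones with the smallest p, so their separation follows from the choice. Large changes were more often increases: 637 genes (5.17%) were called and more than 2-fold higher, and 362 (2.94%) were called and more than 2-fold lower. Above 8-fold, a log2 fold change over 3, the counts were 217 and 58. Most called genes moved less than 1.41-fold, a log2 fold change of at most 0.5, with 952 of the higher and 1201 of the lower genes in that range. The direction also varied with level. In the quartile of genes with the highest mean CPM, 18.1% were called higher and 25.9% lower, and in the lowest quartile 13.4% and 9.22%. Genes called lower were longer, with a median exonic length of 5600 bases against 4263 for genes called higher and 4045 for genes not called. The quartile of genes with the longest exons took 33.1% and 31.9% of the counts in TN and 31.3% and 30.9% in MP. The part of length in the lower calls was not tested.

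**Figure D1:**
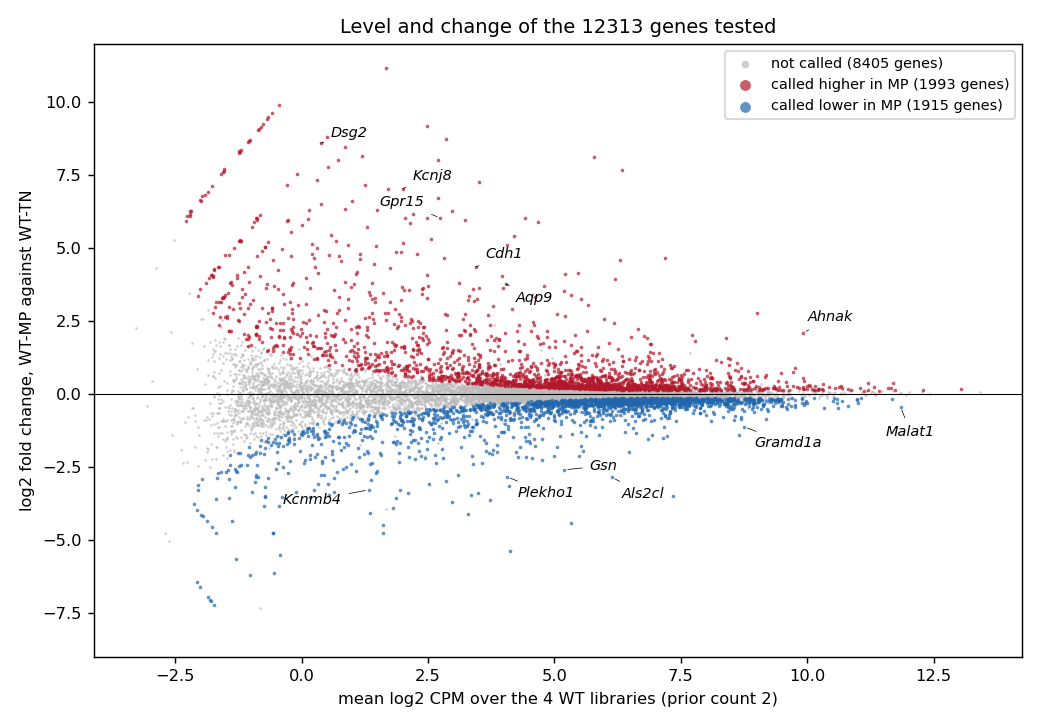
Mean log2 CPM over the 4 WT libraries (x axis) against the log2 fold change of MP over TN (y axis) for the genes tested, coloured by call. Genes beyond the ends of the y axis, such as Dapk2 (log2 fold change 12.1), are not shown. The 1993 genes called higher reach larger changes than the 1915 called lower, and the slanted rows of points at the left are genes with 0 counts in one subset, whose fitted change depends on the prior count.

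Outside a list of known memory, effector and naive markers, the genes that rose most in MP included an adhesion molecule, a membrane channel, a calcium pump, a ubiquitin ligase and an antiviral GTPase. The ranking took genes with a mean log2 CPM of at least 3 whose call held when any 1 WT library was left out and whose TN and MP libraries did not overlap. Cdh1, the gene of the adhesion protein E-cadherin (GRCm38 chromosome 8, 106603351 to 106670246, forward strand), stood at 2.23 and 2.48 CPM in TN and 46.3 and 49.9 CPM in MP (log2 fold change 4.36 ± 0.15, adjusted p = 1.69e-14; the error is the SE). Aqp9, a channel for water and glycerol (GRCm38 chromosome 9, 71110659 to 71168682, reverse strand), was at 4.75 and 4.14 CPM in TN and 59.6 and 59.8 CPM in MP (log2 fold change 3.77 ± 0.11, adjusted p = 1.58e-15). Ifngas1, a long noncoding RNA whose gene neighbours Ifng (GRCm38 chromosome 10, 118502035 to 118556525, reverse strand), was at 3.86 and 3.77 CPM in TN and 63.4 and 61.9 CPM in MP (log2 fold change 4.05 ± 0.12, adjusted p = 1.97e-15). In all 3 the MP libraries lay more than 10-fold above the TN libraries and close to each other. Rnf43, a ubiquitin ligase that removes Wnt receptors from the surface, was at 2.97 and 3.39 CPM in TN and 41.1 and 37.7 CPM in MP (log2 fold change 3.63 ± 0.13, adjusted p = 8.88e-14). Arl4d, a small GTPase of the ARF family, was at 4.75 and 4.14 CPM in TN and 50.7 and 58.2 CPM in MP (log2 fold change 3.64 ± 0.14, adjusted p = 3.57e-13). Atp2b4, a pump that expels calcium through the plasma membrane, was at 7.64 and 5.54 CPM in TN and 46.5 and 49.5 CPM in MP (log2 fold change 2.91 ± 0.13, adjusted p = 3.41e-11). In each of these both MP libraries were several-fold above the TN libraries. Drc1, known as a part of the motor regulatory complex of cilia, was at 3.19 and 2.74 CPM in TN and 34.9 and 36.7 CPM in MP (log2 fold change 3.62 ± 0.14, adjusted p = 2e-13). Mx1, an interferon-induced antiviral GTPase, was at 3.26 and 3.77 CPM in TN and 33.3 and 33.7 CPM in MP (log2 fold change 3.25 ± 0.36, adjusted p = 0.00213). Naip2, a sensor of bacterial secretion systems with close relatives in its own cluster, was at 2.74 and 3.5 CPM in TN and 30.4 and 28.5 CPM in MP (log2 fold change 3.23 ± 0.14, adjusted p = 7.73e-13). Each was low and alike in the TN libraries and several-fold higher in both MP libraries. The remaining genes ranked for their increase were Itpripl2 (3.18), the KRAB-domain gene Pogk (3.06), Zcchc18 (3.04), Edaradd, the adaptor of the ectodysplasin receptor (2.76), and Ifitm10, of the interferon-induced transmembrane family (2.73), given as log2 fold changes.

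The genes that fell most included an actin-severing protein, a neurotrophin receptor, an adenylyl cyclase, accessory TGF-beta receptors and a transcription factor with its corepressor. Als2cl (GRCm38 chromosome 9, 110879870 to 110900530, forward strand) was at 203 and 176 CPM in TN and 28.3 and 23.6 CPM in MP (log2 fold change −2.85 ± 0.12, adjusted p = 1.41e-07). Plekho1, a pleckstrin homology protein that binds casein kinase, was at 44.1 and 44.6 CPM in TN and 5.86 and 6.49 CPM in MP (log2 fold change −2.83 ± 0.27, adjusted p = 0.000682). Ntrk3, the receptor kinase for neurotrophin-3 (GRCm38 chromosome 7, 78175959 to 78738012, reverse strand), was at 22.8 and 21.6 CPM in TN and 3.51 and 2.93 CPM in MP (log2 fold change −2.76 ± 0.20, adjusted p = 7.75e-09). Both TN libraries lay far above both MP libraries in each. Gsn, whose product gelsolin severs actin filaments, was at 91.7 and 88.3 CPM in TN and 15.9 and 13.6 CPM in MP (log2 fold change −2.59 ± 0.11, adjusted p = 4.46e-09). Matk, a kinase that shuts off Src-family kinases, was at 54.7 and 46.8 CPM in TN and 11.1 and 10.7 CPM in MP (log2 fold change −2.19 ± 0.16, adjusted p = 6.87e-06). Adcy6, an adenylyl cyclase that makes cyclic AMP, was at 66.5 and 51.9 CPM in TN and 11.6 and 12.7 CPM in MP (log2 fold change −2.26 ± 0.14, adjusted p = 7.97e-07). Accessory receptors for TGF-beta were among the genes ranked for their decrease. Eng, the gene of endoglin, was at 45.5 and 37.6 against 10.3 and 7.77 CPM (log2 fold change −2.17 ± 0.14, adjusted p = 7.71e-09). Tgfbr3, the gene of betaglycan, was at 21.9 and 20.7 against 5.13 and 4.53 CPM (log2 fold change −2.12 ± 0.14, adjusted p = 7.15e-10). Egr3, a transcription factor induced by T cell receptor signals, was at 29.3 and 26.1 CPM in TN and 6.5 and 6.63 CPM in MP (log2 fold change −2.06 ± 0.20, adjusted p = 2.7e-05), and its corepressor Nab2 was at 65.4 and 66.7 CPM in TN and 15 and 15.3 CPM in MP (log2 fold change −2.11 ± 0.10, adjusted p = 2.25e-12). Thus a factor and a partner that restrains it were lower together. Usp6nl, which turns off the endosomal GTPase Rab5 (−2.39), Ggt5, which cleaves leukotriene C4 (−2.35), Cpm, a membrane carboxypeptidase (−2.14), and Ephx1, an epoxide hydrolase (−2.13), completed the 14. Als2cl, Eng, Nab2 and Pogk lie over genes on the other strand (Tmie, Fpgs, Stat6 and Nemp1, and Tada1), as do Dgka, F2rl2, St3gal6, Zcchc18, Chpt1 and Inppl1. The kit marked strand, but the labels do not state the strand setting of the counting, so reads of such pairs could have been counted for either gene.

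**Figure D2:**
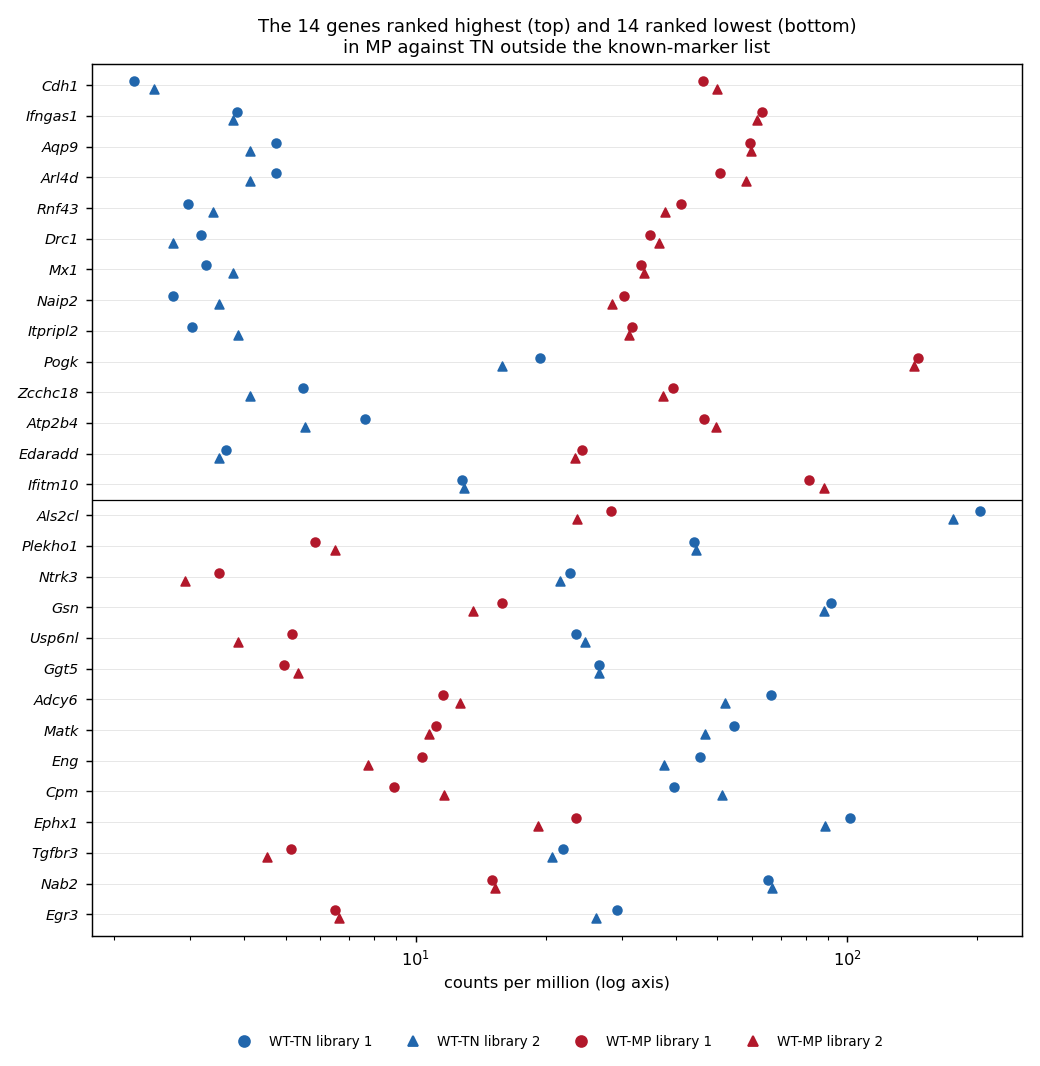
CPM (counts scaled to library size, log axis) in each WT library for the 14 genes ranked highest and the 14 ranked lowest in MP against TN outside the known-marker list. In all 28 genes the TN points (blue) and MP points (red) do not overlap, which was a condition of the ranking.

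By absolute amount, the largest gains in MP outside the known markers were mitochondrial transcripts, and the largest losses were abundant cytoskeletal and nuclear RNAs. This ranking uses counts and so favours long and abundant transcripts. The giant scaffold gene Ahnak, a listed marker, gained most, at 502 and 438 CPM in TN and 2001 and 1954 CPM in MP (log2 fold change 2.09 ± 0.12, adjusted p = 3e-05). Cd163l1 was held among the listed markers too, and so was left out of the ranking by fold change. It stood at 7.34 and 4.25 CPM in TN and 1179.7 and 1114 CPM in MP (log2 fold change 7.69). That gain was larger than those of the mitochondrial transcripts given here. The respiratory chain gene mt-Nd5 was at 2939 and 2945 CPM in TN and 3764 and 3739 CPM in MP (log2 fold change 0.37 ± 0.05, adjusted p = 4.75e-06), and mt-Nd2 at 2161 and 1939.7 CPM in TN and 2776 and 2566 CPM in MP (log2 fold change 0.40 ± 0.06, adjusted p = 2.16e-05). Both MP libraries lay above both TN libraries. For mt-Co1 (0.17) the call was lost without WT-MP replicate 1 (adjusted p = 0.0887) or 2 (adjusted p = 0.0528). Malat1, a nuclear long noncoding RNA, lost most, at 4342 and 4213 CPM in TN and 3143 and 3155 CPM in MP (log2 fold change −0.43 ± 0.05, adjusted p = 4.66e-06). Arhgef1, an exchange factor downstream of G alpha 13, was at 1896 and 1785 CPM in TN and 1283 and 1334 CPM in MP (log2 fold change −0.48 ± 0.05, adjusted p = 1.45e-07), and Arhgap45 at 2117 and 2012 CPM in TN and 1522 and 1546 CPM in MP (log2 fold change −0.41 ± 0.05, adjusted p = 7.75e-07). In these abundant RNAs the libraries of each subset differed by far less than the subsets did. Gramd1a, which moves cholesterol from the plasma membrane to the endoplasmic reticulum, was at 661 and 612 CPM in TN and 289 and 291 CPM in MP (log2 fold change −1.12 ± 0.09, adjusted p = 2.7e-06). Dgka, the kinase that consumes diacylglycerol and so damps T cell receptor signals, was at 1497 and 1556 CPM in TN and 1041 and 1136 CPM in MP (log2 fold change −0.47 ± 0.05, adjusted p = 5.32e-07). Macf1, a linker of microtubules to actin, was at 2455 and 2122 CPM in TN and 1905 and 1733 CPM in MP (−0.32). The myosin heavy chain Myh9 was at 3669 and 3328 CPM in TN and 3093 and 3025 CPM in MP (−0.18), and its call was lost without WT-TN replicate 1 (adjusted p = 0.134), WT-MP replicate 1 (adjusted p = 0.0543) or WT-MP replicate 2 (adjusted p = 0.121).

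Ion channel genes fell more often than they rose, and single potassium channels changed strongly in both directions. Of 35 tested potassium, chloride and other ion channel genes, 8 rose and 16 fell (22.9% and 45.7%), with a median log2 fold change of −0.19 beside 0.00 for all genes. Kcnj8, the pore of an ATP-sensitive potassium channel (GRCm38 chromosome 6, 142564837 to 142571614, reverse strand), stood at 0.223 and 0.377 CPM in TN and 39.6 and 42.9 CPM in MP (log2 fold change 7.04 ± 0.19, adjusted p = 9.1e-16). Kcnk5, a two-pore potassium channel, had 2 counts over both TN libraries and 1075 over both MP libraries, which is 381 times the TN rate (95% counting interval 105 to 3150.0). Kcnk6, of the same family, was at 0.519 and 1.35 CPM in TN and 6.07 and 5.8 CPM in MP (log2 fold change 2.60 ± 0.32, adjusted p = 2.51e-06). These 3 genes were at most at 1.35 CPM in TN and were higher in both MP libraries. Other potassium channel genes were lower in MP. Kcna2 was at 100.4 and 87.2 CPM in TN and 23.7 and 24.4 CPM in MP (log2 fold change −1.95 ± 0.08, adjusted p = 2.45e-13), and Kcna3, the gene of Kv1.3, the main voltage-gated potassium channel of T cells, at 44 and 42.5 CPM in TN and 25.8 and 27.8 CPM in MP (log2 fold change −0.67 ± 0.07, adjusted p = 7.74e-07). Kcnmb4, an accessory subunit of calcium-activated potassium channels, was at 7.64 and 7.21 CPM in TN and 0.812 and 0.686 CPM in MP (log2 fold change −3.28 ± 0.29, adjusted p = 3.27e-08). All 3 were lower in both MP libraries than in either TN library. Of the other members, Tmem37, a calcium channel gamma-like subunit (3.45), and Clic4, an intracellular chloride channel protein (1.05), rose. Lrrc8a, the obligatory subunit of volume-regulated anion channels (−0.92), and Slc12a7, a potassium-chloride cotransporter (−0.52), fell.

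Calcium handling genes were called in both directions. Of 44 tested genes, 11 rose and 9 fell (25.0% and 20.5%, median 0.08), beside 16.2% and 15.6% of all genes. Lower calcium genes numbered 5 with WT-TN replicate 2 left out. Beside Atp2b4, the rises included Camk2n1, an inhibitor of calmodulin-dependent kinase II (1.63 and 2.1 against 9.62 and 11.6 CPM; log2 fold change 2.50 ± 0.23, adjusted p = 5.49e-08). Nfatc2, the calcium-regulated transcription factor (0.70), Ppp3cc, a catalytic subunit of calcineurin (0.64), and Calm2, a calmodulin gene (0.59), rose by less. The endoplasmic reticulum calcium pump Atp2a3 was at 562 and 493 CPM in TN and 400.0 and 394 CPM in MP (log2 fold change −0.39 ± 0.06, adjusted p = 3.18e-05), and the calcium entry channel Orai2 at 276 and 249.98 CPM in TN and 189 and 191 CPM in MP (log2 fold change −0.45 ± 0.05, adjusted p = 1.52e-06). Camk4, a kinase that carries calcium signals to the nucleus, fell too (−0.66). The 3 last were lower in each MP library than in each TN library.

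Of 23 tested genes of purinergic signalling, 9 rose and 5 fell (39.1% and 21.7%, median 0.06), and an enzyme pair that makes adenosine and a receptor that senses it were among those that rose. Lower purinergic genes numbered 3 with WT-TN replicate 2 left out. Entpd1, which encodes CD39 and splits extracellular ATP, was at 1.11 and 0.753 CPM in TN and 4.15 and 5.07 CPM in MP (log2 fold change 2.34 ± 0.35, adjusted p = 3.22e-05). Nt5e, which encodes CD73 and makes adenosine from AMP, was at 39.5 and 34.5 CPM in TN and 131 and 115 CPM in MP (log2 fold change 1.76 ± 0.11, adjusted p = 1.08e-06). The adenosine receptor Adora2a was at 19.3 and 15.3 CPM in TN and 58.9 and 60.2 CPM in MP (log2 fold change 1.81 ± 0.11, adjusted p = 2.24e-09). For each of the 3 both MP libraries lay above both TN libraries. Cd38, which consumes NAD outside the cell, was at 3.12 and 1.99 CPM in TN and 9.71 and 9.55 CPM in MP (log2 fold change 1.96 ± 0.21, adjusted p = 4.88e-07). Art2b, which attaches ADP-ribose from NAD to surface proteins, was at 84.6 and 80.3 CPM in TN and 33.6 and 26 CPM in MP (log2 fold change −1.45 ± 0.13, adjusted p = 6.07e-05), and the ATP-gated channel P2rx4 at 24.8 and 23.8 CPM in TN and 15.5 and 14.8 CPM in MP (log2 fold change −0.66 ± 0.11, adjusted p = 6.82e-05). The 2 users of extracellular NAD therefore moved in opposite directions.

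**Figure D3:**
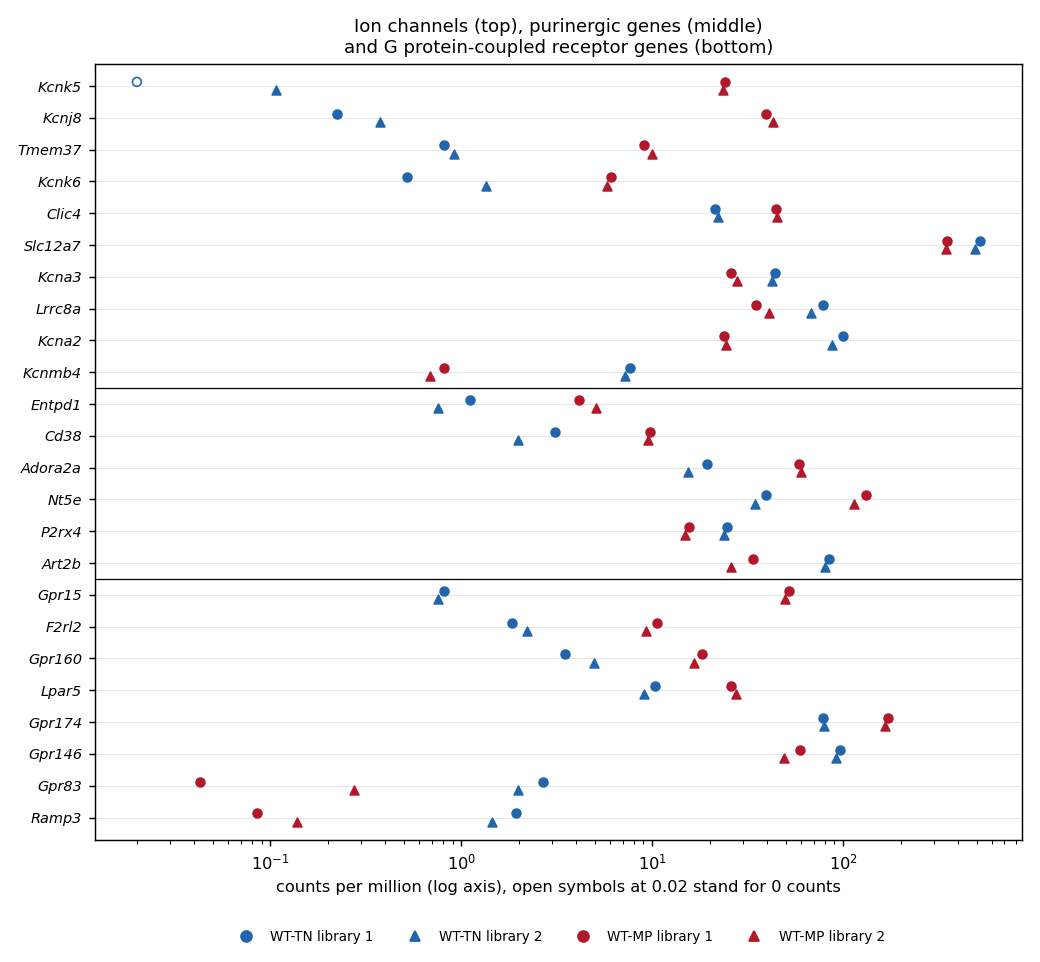
CPM (counts scaled to library size, log axis) in each WT library for named ion channel, purinergic and G protein-coupled receptor genes, with an open symbol at 0.02 for a library with 0 counts. Kcnk5, Kcnj8 and Gpr15 are at or below 0.82 CPM in TN and above 23 CPM in MP, while Kcna2, Kcnmb4 and Gpr83 are lower in MP.

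G protein-coupled receptors outside the chemokine group rose often: 20 of 40 tested were higher and 8 lower (50.0% and 20%, median 0.22). Gpr15, a homing receptor for the large intestine (GRCm38 chromosome 16, 58717433 to 58719070, reverse strand), was at 0.816 and 0.753 CPM in TN and 52.2 and 49.8 CPM in MP (log2 fold change 6.04 ± 0.17, adjusted p = 9.1e-16). It overlaps Cpox on the other strand, a haem synthesis gene that rose by 0.64. F2rl2, a protease-activated receptor, was at 1.85 and 2.21 CPM in TN and 10.6 and 9.23 CPM in MP (log2 fold change 2.28 ± 0.24, adjusted p = 4.64e-07). Gpr174, a receptor for lysophosphatidylserine, was at 78.3 and 79.2 CPM in TN and 172 and 166 CPM in MP (log2 fold change 1.12 ± 0.06, adjusted p = 3.02e-11). The 2 MP libraries agreed closely in each of these. Gpr160 (2.04) and the lysophosphatidic acid receptor Lpar5 (1.48) rose as well. Gpr83 was at 2.67 and 1.99 CPM in TN and 0.0428 and 0.274 CPM in MP (log2 fold change −3.83 ± 0.57, adjusted p = 3.29e-05), and Ramp3, a partner of the calcitonin receptor family, at 1.93 and 1.45 CPM in TN and 0.0855 and 0.137 CPM in MP (log2 fold change −3.83 ± 0.57, adjusted p = 3.28e-05). Both were higher in TN without overlap.

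Downstream of these receptors, genes that break down cyclic AMP split. Of 31 tested cyclic AMP enzymes and targets, 6 rose and 11 fell (19.4% and 35.5%). Lower members of it numbered 7 with WT-MP replicate 1 left out and 6 with WT-MP replicate 2 or WT-TN replicate 1 left out. The phosphodiesterases Pde4d (58.9 and 57.4 against 30.0 and 29 CPM; log2 fold change −0.96 ± 0.08, adjusted p = 1.67e-08) and Pde4b (127 and 135 against 76.9 and 79.1 CPM; log2 fold change −0.73 ± 0.05, adjusted p = 2.93e-09) fell, and Pde7a (0.42) and Pde8a (0.77) rose. Pkig, an inhibitor of protein kinase A, was at 1.04 and 0.915 CPM in TN and 4.06 and 4.16 CPM in MP (log2 fold change 2.09 ± 0.30, adjusted p = 1.82e-05). Among 36 G protein subunits, RGS proteins and arrestins, 11 rose and 13 fell (30.6% and 36.1%). The 13 became 8 with WT-MP replicate 1 left out and 5 with WT-TN replicate 1 left out. Gng2, a gamma subunit (1.05), Rgs2 (0.71) and Rgs3 (0.68), which speed G protein shut-off, rose. Rgs10 (−0.54), Rgs14 (−0.31) and the beta subunit Gnb4 (−1.58) fell.

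Immunoglobulin-type and lectin receptors were the list with the largest share of higher members among the lists of pathways and families, 20 of 35 (57.1%), with 4 lower (11.4%) and a median of 0.60. Lilr4b, an immunoglobulin-type receptor with near-identical relatives, was at 0.223 and 0.215 CPM in TN and 4.4 and 4.62 CPM in MP (log2 fold change 4.35 ± 0.34, adjusted p = 6.79e-09). Crtam, a receptor that prolongs T cell contacts, was at 47.6 and 49.8 CPM in TN and 105 and 103 CPM in MP (log2 fold change 1.11 ± 0.06, adjusted p = 1.52e-11). Cd200, the ligand of an inhibitory receptor on myeloid cells, was at 4.6 and 3.23 CPM in TN and 0.299 and 0.594 CPM in MP (log2 fold change −3.10 ± 0.38, adjusted p = 3.29e-06), and Cd96 (−0.30) and Cd84 (−0.26) fell slightly.

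Junction proteins of epithelia were among the adhesion genes that rose. Of 29 tested adhesion molecules, 12 rose and 2 fell (41.4% and 6.9%, median 0.33). Dsg2, a desmosomal cadherin, had 1 count over both TN libraries and 646 over both MP libraries, which is 458 times the TN rate (95% counting interval 81.8 to 18100.0). Epcam, an epithelial adhesion molecule, was at 2.52 and 2.53 CPM in TN and 9.36 and 12.1 CPM in MP (log2 fold change 2.10 ± 0.19, adjusted p = 6.18e-08). Jaml, a junctional protein of leukocytes, was at 76.4 and 77.2 CPM in TN and 127 and 144 CPM in MP (log2 fold change 0.83 ± 0.06, adjusted p = 1.95e-09), and Pvr, a ligand of CD226 and TIGIT, at 12.3 and 11.5 CPM in TN and 31.5 and 34.1 CPM in MP (log2 fold change 1.48 ± 0.10, adjusted p = 8.37e-10). With Cdh1, these 5 genes were higher in each MP library. Pecam1, which encodes the inhibitory adhesion receptor CD31, was at 193 and 205 CPM in TN and 115 and 111 CPM in MP (log2 fold change −0.80 ± 0.06, adjusted p = 1.54e-09), and Icam2, a ligand of LFA-1, fell by less (−0.40). Guidance genes rose in 9 and fell in 4 of 23 cases (lower 2 with WT-MP replicate 2 left out), with the semaphorins Sema4a (0.37), Sema4d (0.51) and Sema4f (0.46) higher and Sema3d (−2.36) lower. Tetraspanin and MS4A-type genes rose in 10 and fell in 5 of 31 (32.3% and 16.1%). Ms4a4c, one of a group of similar genes, was at 28.3 and 34 CPM in TN and 175 and 158 CPM in MP (log2 fold change 2.43 ± 0.10, adjusted p = 5.15e-09), and the tetraspanin Cd9 at 8.01 and 7.05 CPM in TN and 1.5 and 2.19 CPM in MP (log2 fold change −2.01 ± 0.23, adjusted p = 1.06e-06). Ms4a4c was high in MP and Cd9 in TN, in both libraries of each.

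The enzymes that build surface glycans changed in both directions. Of 55 tested glycosyltransferases, 22 rose and 13 fell (40.0% and 23.6%, median 0.12). Chsy1, which polymerizes chondroitin, was at 71.7 and 61.7 CPM in TN and 217 and 214 CPM in MP (log2 fold change 1.71 ± 0.06, adjusted p = 1.01e-13). Ext1, which polymerizes heparan sulphate, was at 29.5 and 30.9 CPM in TN and 10.9 and 10.6 CPM in MP (log2 fold change −1.47 ± 0.10, adjusted p = 5.24e-10). The chondroitin and heparan polymerases thus moved oppositely, without overlap. Among sialyltransferases, St3gal6 was at 43.9 and 46.5 CPM in TN and 137 and 123 CPM in MP (log2 fold change 1.54 ± 0.07, adjusted p = 6.81e-13), and St3gal4 (0.77) and St6galnac4 (0.82) also rose. St3gal1, which caps core 1 O-glycans, was at 214 and 182 CPM in TN and 118 and 118 CPM in MP (log2 fold change −0.72 ± 0.07, adjusted p = 6.98e-07), and St8sia1, which makes the ganglioside GD3, at 82.8 and 89.4 CPM in TN and 26.8 and 22.8 CPM in MP (log2 fold change −1.78 ± 0.09, adjusted p = 5.88e-11). The O-glycan starter Galnt6 fell (−0.68) and B4galt5, a galactosyltransferase, rose (0.95).

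Inside the cell, enzymes of phosphoinositide and diacylglycerol signalling had the largest share of lower members among these lists. Of 50 tested, 26 fell and 13 rose (52.0% and 26.0%, median −0.18). Inpp4a, a phosphatase of phosphoinositides, was at 32.2 and 31.1 CPM in TN and 15.7 and 12.8 CPM in MP (log2 fold change −1.13 ± 0.12, adjusted p = 6.18e-07). Pik3ip1, an inhibitor of PI3-kinase, was at 190.3 and 189.6 CPM in TN and 126 and 128 CPM in MP (log2 fold change −0.57 ± 0.06, adjusted p = 2.42e-07). Plcl2, a phospholipase C-like protein without catalytic activity, was at 187 and 201 CPM in TN and 129.6 and 120.5 CPM in MP (log2 fold change −0.62 ± 0.06, adjusted p = 9.74e-08). Each of these 3 was lower in both MP libraries. Inppl1, the lipid phosphatase SHIP2, was at 2.67 and 1.51 CPM in TN and 11.5 and 11.1 CPM in MP (log2 fold change 2.50 ± 0.23, adjusted p = 7.96e-08), and Dgkh, a diacylglycerol kinase unlike Dgka in direction, at 11.8 and 12.2 CPM in TN and 26.3 and 26.7 CPM in MP (log2 fold change 1.16 ± 0.11, adjusted p = 5.61e-08). Pik3r5, a regulator of PI3-kinase gamma (0.74), Rptor, the scaffold of mTORC1 (1.05), and Prkca (0.55) rose, and the protein kinase C gene Prkcb fell (−0.48).

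Ras and Rap regulators fell in 19 and rose in 10 of 44 cases (43.2% and 22.7%, median −0.18). Higher Ras and Rap genes numbered 6 with WT-TN replicate 1 left out. Rasgrp1, the diacylglycerol-driven activator of Ras in T cells, was at 499 and 487 CPM in TN and 299 and 277 CPM in MP (log2 fold change −0.76 ± 0.05, adjusted p = 1.12e-09), and Sipa1l1, which turns off Rap, at 179.6 and 175 CPM in TN and 113 and 109.7 CPM in MP (log2 fold change −0.66 ± 0.05, adjusted p = 4.92e-09). Spry2, a feedback inhibitor of Ras signalling, was at 0.148 and 0.43 CPM in TN and 15.4 and 17.6 CPM in MP (log2 fold change 5.72 ± 0.29, adjusted p = 9.32e-12). An activator was thus lower and an inhibitor higher in MP, in both libraries. In the MAP kinase list 13 of 43 fell and 5 rose (lower 8 with WT-TN replicate 1 left out). Map3k8, the kinase Tpl2, was at 9.12 and 8.29 CPM in TN and 44.4 and 44 CPM in MP (log2 fold change 2.37 ± 0.13, adjusted p = 5.54e-10), Map4k2 at 564 and 535 CPM in TN and 306 and 320.4 CPM in MP (log2 fold change −0.79 ± 0.05, adjusted p = 5.44e-10), and the ERK phosphatase Dusp5 rose (1.06). Among tyrosine phosphatases and kinases, 20 rose and 15 fell of 52 (38.5% and 28.8%). Ptprj, the receptor phosphatase CD148, was at 1.26 and 1.18 CPM in TN and 13.6 and 15.4 CPM in MP (log2 fold change 3.58 ± 0.21, adjusted p = 7.13e-11), and Ryk, a Wnt-binding pseudokinase, at 0.371 and 0.484 CPM in TN and 13.3 and 16 CPM in MP (log2 fold change 5.07 ± 0.25, adjusted p = 8.42e-12). Igf1r, the receptor of insulin-like growth factor 1, was at 20.6 and 23.8 CPM in TN and 6.2 and 7.72 CPM in MP (log2 fold change −1.67 ± 0.18, adjusted p = 5.16e-06). Ptpn22 (0.63) and Ptpn4 (1.30), cytoplasmic phosphatases, rose. Neither Ptprj nor Ryk in TN came near the MP libraries.

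Cytoskeletal genes moved both ways. Actin and myosin regulators rose in 13 and fell in 15 of 61 cases (21.3% and 24.6%), with the lower count at 9 with WT-MP replicate 1 left out. Myo1f, a membrane-bound myosin of leukocytes, was at 113 and 119 CPM in TN and 405 and 413 CPM in MP (log2 fold change 1.83 ± 0.05, adjusted p = 1.58e-15), and Myo6, the myosin that walks toward the minus end, at 3.71 and 5.11 CPM in TN and 21.6 and 24 CPM in MP (log2 fold change 2.36 ± 0.15, adjusted p = 2.93e-10). Cnn3, a calponin, was at 28.9 and 26.8 CPM in TN and 2.27 and 2.01 CPM in MP (log2 fold change −3.68 ± 0.20, adjusted p = 2.38e-09), and the muscle-type actinin Actn2 at 15.8 and 14.9 CPM in TN and 6.5 and 7.36 CPM in MP (log2 fold change −1.13 ± 0.14, adjusted p = 3.3e-06). The myosins were high in MP and Cnn3 and Actn2 in TN, without overlap. Tubulins, kinesins and other microtubule genes fell in 13 and rose in 4 of 33 (39.4% and 12.1%, median −0.15). Lower microtubule genes numbered 6 with WT-MP replicate 1 or WT-TN replicate 1 left out. Tuba1a was at 70.0 and 78 CPM in TN and 45.1 and 48.5 CPM in MP (log2 fold change −0.65 ± 0.07, adjusted p = 6.22e-07) and the kinesin Kif21b at 1000.1 and 855 CPM in TN and 663 and 625 CPM in MP (log2 fold change −0.51 ± 0.06, adjusted p = 4.58e-06). Mapre2, which binds growing microtubule ends, moved the other way, at 25.7 and 22.3 CPM in TN and 106 and 104 CPM in MP (log2 fold change 2.16 ± 0.09, adjusted p = 7.52e-13).

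Granule and protease genes were tested apart from the known granzymes. Exocytosis machinery rose in 6 and fell in 5 of 23 cases, the latter count being 2 with WT-MP replicate 1 or WT-TN replicate 1 left out. Stx11, needed for the release of lytic granules, was at 1.48 and 1.08 CPM in TN and 6.59 and 8 CPM in MP (log2 fold change 2.55 ± 0.25, adjusted p = 1.9e-07). Sytl2, which ties granules to the membrane, was at 38.4 and 33.2 CPM in TN and 88.5 and 87.3 CPM in MP (log2 fold change 1.32 ± 0.07, adjusted p = 3.37e-11), and Lyst, a regulator of lysosome size, at 232 and 199 CPM in TN and 484 and 430.3 CPM in MP (log2 fold change 1.10 ± 0.14, adjusted p = 0.00265). Sytl1, a relative of Sytl2, was at 37.9 and 32.6 CPM in TN and 21.9 and 20.7 CPM in MP (log2 fold change −0.70 ± 0.10, adjusted p = 1.97e-05). The 2 synaptotagmin-like genes thus moved in opposite directions. Protease inhibitors rose in 8 and fell in 2 of 15 (53.3% and 13.3%). Higher inhibitors numbered 5 with WT-TN replicate 1 left out, and lower ones 1 with WT-MP replicate 1, WT-MP replicate 2, WT-TN replicate 1, WT-TN replicate 2, mCre-MP replicate 1, mCre-MP replicate 2 or mCre-TN replicate 2 left out. Serpina3g, an inhibitor of lysosomal proteases with close copies nearby, was at 1.34 and 1.29 CPM in TN and 20.4 and 24 CPM in MP (log2 fold change 4.09 ± 0.25, adjusted p = 1.14e-07), and Cst7, an inhibitor of cathepsins, at 90.9 and 87.8 CPM in TN and 188 and 198 CPM in MP (log2 fold change 1.13 ± 0.05, adjusted p = 5.05e-12). Timp2, an inhibitor of metalloproteinases, was at 101 and 93.1 CPM in TN and 35.9 and 35.9 CPM in MP (log2 fold change −1.42 ± 0.07, adjusted p = 3.49e-12). Lysosomal enzymes included Ctsw, a cathepsin of cytotoxic cells (0.79), and Ctsd (0.74), which rose, and Ctsl (−1.14) and the cholesterol carrier Npc2 (−0.60), which fell. Npc1, which acts with Npc2 to export cholesterol from lysosomes, rose (0.64). The partners Npc1 and Npc2 thus differed in direction.

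Among TNF-family genes, 9 rose and 6 fell of 32 (28.1% and 18.8%). The ligands Tnfsf10, which encodes TRAIL (39.9 and 42.2 against 94 and 91.6 CPM; log2 fold change 1.19 ± 0.07, adjusted p = 4.42e-11), and Tnfsf8, the CD30 ligand (61.4 and 67.1 against 139 and 147 CPM; log2 fold change 1.17 ± 0.07, adjusted p = 4.93e-09), rose. The TNF receptor Tnfrsf1b rose as well (0.82). Cd40lg, the ligand of CD40, was at 8.9 and 7.64 CPM in TN and 1.62 and 1.6 CPM in MP (log2 fold change −2.33 ± 0.25, adjusted p = 4.25e-07), and Tnfrsf14, the receptor HVEM, fell (−0.62).

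Among chromatin genes more members fell than rose. Histone acetylation and demethylation enzymes fell in 23 and rose in 5 of 56 cases (41.1% and 8.93%, median −0.14). Polycomb and trithorax genes fell in 21 and rose in 8 of 52 (40.4% and 15.4%), and chromatin remodellers in 18 and 6 of 57 (31.6% and 10.5%). The lower count of the first list was 14 with WT-MP replicate 2 or WT-TN replicate 1 left out, and the higher count of the Polycomb and trithorax list 5 with WT-TN replicate 2 left out. These genes are long and well expressed, with median exonic lengths of 6824 to 7223 bases and median levels of 85.6 to 119 CPM, which is the range in which lower calls were common among all genes. That part was not tested. Kmt2c, a histone H3 methyltransferase, was at 448 and 393 CPM in TN and 306 and 297 CPM in MP (log2 fold change −0.46 ± 0.06, adjusted p = 4.46e-06), and Kdm5b, a demethylase, at 76.3 and 66.3 CPM in TN and 52.2 and 45.3 CPM in MP (log2 fold change −0.53 ± 0.08, adjusted p = 2.31e-05). Jarid2, which guides Polycomb complex 2, was at 106 and 93.5 CPM in TN and 67.3 and 69.8 CPM in MP (log2 fold change −0.52 ± 0.07, adjusted p = 3.52e-06). Against this direction, Pcgf2, a Polycomb ring finger gene, was at 1.34 and 1.18 CPM in TN and 8.3 and 10.6 CPM in MP (log2 fold change 2.93 ± 0.28, adjusted p = 9.42e-08), and Phf19, a cofactor of Polycomb complex 2, at 3.56 and 2.69 CPM in TN and 9.07 and 7.18 CPM in MP (log2 fold change 1.41 ± 0.21, adjusted p = 2.89e-05). Both libraries of MP lay above both of TN for these 2, and below them for Kmt2c, Kdm5b and Jarid2. The linker histone H1f0 (1.80) and the variant H2afz (0.87) rose.

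Splicing regulators fell in 19 and rose in 4 of 50 cases (38.0% and 8.0%). Lower splicing genes numbered 12 with WT-MP replicate 1 or WT-MP replicate 2 left out and 10 with WT-TN replicate 1 left out. Sf3b1, of the U2 particle, was at 1069 and 1041 CPM in TN and 838 and 859 CPM in MP (log2 fold change −0.30 ± 0.05, adjusted p = 3.6e-05), and Rbm38 at 246 and 228 CPM in TN and 155 and 173 CPM in MP (log2 fold change −0.51 ± 0.06, adjusted p = 9.89e-07). Mbnl1 (0.29) and Mbnl3 (0.68), the muscleblind regulators, rose. Autophagy genes fell in 14 and rose in 3 of 50 (28.0% and 6.0%). Lower autophagy genes numbered 9 with WT-MP replicate 2 left out and 8 with WT-TN replicate 1 left out, and higher ones 5 with WT-TN replicate 2 left out. Atg14, which directs the lipid kinase of autophagy, was at 44.1 and 43.2 CPM in TN and 28 and 24.4 CPM in MP (log2 fold change −0.72 ± 0.09, adjusted p = 3.42e-06), and Sesn1, a sestrin that restrains mTORC1, at 118 and 122 CPM in TN and 77.1 and 76.5 CPM in MP (log2 fold change −0.63 ± 0.06, adjusted p = 2.38e-07). Gabarapl2, a conjugated protein of the autophagosome, rose (0.68). RNA decay genes (10 higher and 11 lower of 60, 16.7% and 18.3%) and translation genes (12 and 7 of 66, 18.2% and 10.6%) were also counted. Lower RNA decay genes numbered 4 with WT-MP replicate 2 left out and 6 with WT-TN replicate 1 left out, and higher translation genes 7 with WT-MP replicate 1 left out and 6 with WT-TN replicate 1 left out.

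Long noncoding RNAs of lymphocytes rose in 9 and fell in 3 of 24 cases (37.5% and 12.5%; lower 1 with WT-TN replicate 2 left out), with Ifngas1 among those that rose and Malat1 among those that fell.

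**Figure D4:**
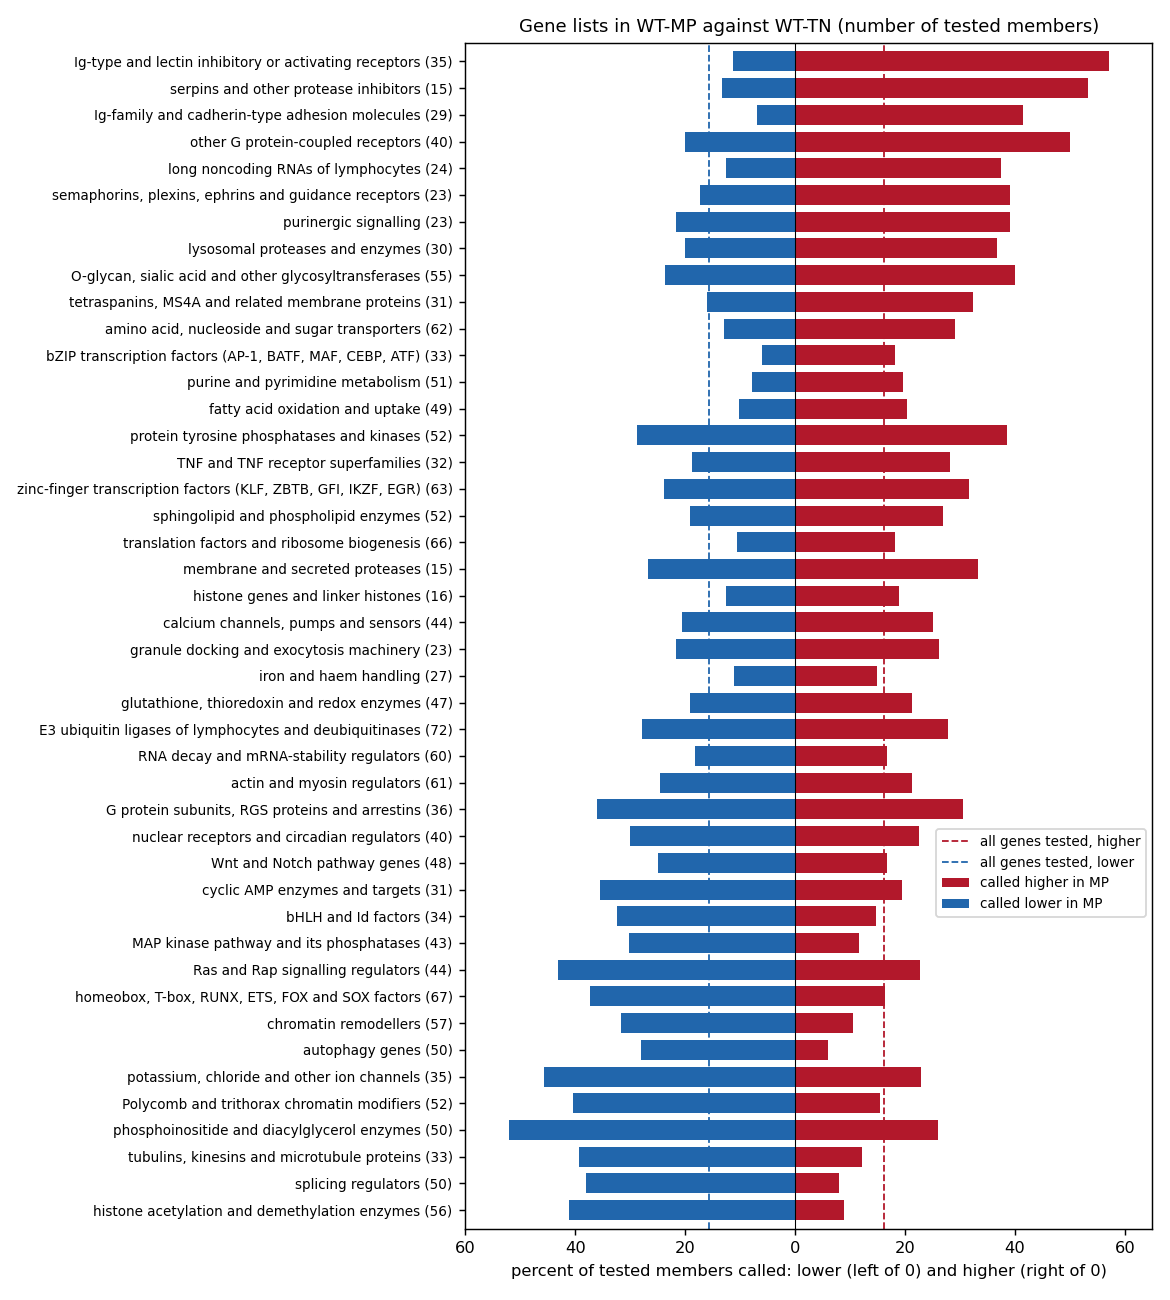
For lists of pathways, families or machinery, the percent of tested members called higher (right) and lower (left) in MP, with the shares of all genes tested as dashed lines at 16.2% and 15.6%. Receptors and adhesion molecules are at the top, with more members higher, and chromatin, splicing, microtubule and phosphoinositide genes are at the bottom, with more members lower.

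Transcription factors outside the known set changed in both directions. Zbtb7b, the gene of ThPOK, which sets the CD4 lineage apart from the CD8 lineage, was at 1.78 and 1.29 CPM in TN and 21 and 18.1 CPM in MP (log2 fold change 3.71 ± 0.19, adjusted p = 1.37e-11). Nfil3, a factor of innate lymphoid development, was at 3.86 and 2.42 CPM in TN and 11.2 and 9.64 CPM in MP (log2 fold change 1.78 ± 0.24, adjusted p = 1.51e-05). Nr3c2, the mineralocorticoid receptor, was at 1.26 and 0.699 CPM in TN and 6.07 and 6.95 CPM in MP (log2 fold change 2.79 ± 0.30, adjusted p = 6.08e-07), and the glucocorticoid receptor Nr3c1 rose by less (0.53). In these genes both MP libraries were above both TN libraries, although Zbtb7b, Nfil3 and Nr3c2 stayed under 22 CPM. Pou6f1 was at 78.4 and 74.1 CPM in TN and 198 and 206 CPM in MP (log2 fold change 1.42 ± 0.05, adjusted p = 1.37e-13). Tcf4, an E protein, was at 10.8 and 8.93 CPM in TN and 3.21 and 1.78 CPM in MP (log2 fold change −1.95 ± 0.22, adjusted p = 2.02e-06), and Sox5, a SOX-family factor, had 66 counts over both TN libraries and 1 over both MP libraries. Ikzf1 (−0.38), Bcl11b (−0.44) and Klf13 (−0.43), abundant factors of T cell identity and quiescence, fell by less than 1.5-fold. Srebf2, the activator of cholesterol synthesis genes, was at 302 and 286 CPM in TN and 184 and 188 CPM in MP (log2 fold change −0.64 ± 0.05, adjusted p = 5.06e-09). Homeobox, T-box, RUNX, ETS, FOX and SOX genes together fell in 25 and rose in 11 of 67 cases (37.3% and 16.4%). Zinc-finger factors rose in 20 and fell in 15 of 63 (31.7% and 23.8%).

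Wnt and Notch pathway genes rose in 8 and fell in 12 of 48 cases (16.7% and 25.0%). Lower members of this list numbered 6 with WT-TN replicate 1 left out. Beside Rnf43, Nrarp, a feedback inhibitor of Notch, was at 3.78 and 3.55 CPM in TN and 21.3 and 22.4 CPM in MP (log2 fold change 2.59 ± 0.14, adjusted p = 2.39e-11). Dtx1, a ubiquitin ligase of the Notch pathway, was at 456 and 399 CPM in TN and 256 and 236 CPM in MP (log2 fold change −0.78 ± 0.07, adjusted p = 4.77e-07), and Maml3, a Notch coactivator, at 12.7 and 10.2 CPM in TN and 4.7 and 2.97 CPM in MP (log2 fold change −1.55 ± 0.23, adjusted p = 5.24e-05). Nrarp was high in MP and Dtx1 and Maml3 in TN. Of 72 tested ubiquitin ligases and deubiquitinases, 20 rose and 20 fell (27.8% each). The ligase Rnf138 was at 73.5 and 78.8 CPM in TN and 183 and 176 CPM in MP (log2 fold change 1.25 ± 0.06, adjusted p = 2.11e-12). The deubiquitinase Usp28 was at 214 and 209.6 CPM in TN and 99 and 93.4 CPM in MP (log2 fold change −1.12 ± 0.06, adjusted p = 8.91e-12). The 20 higher genes of this list became 13 with WT-MP replicate 2 left out, and the 20 lower ones 12 with WT-MP replicate 1 left out, 13 with WT-MP replicate 2 left out and 11 with WT-TN replicate 1 left out.

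Lipid and redox metabolism showed single large changes. Smpdl3b, a phosphodiesterase of sphingolipids at the membrane, was at 0.148 and 0.161 CPM in TN and 13.3 and 12.7 CPM in MP (log2 fold change 6.34 ± 0.29, adjusted p = 2.25e-12). Chpt1, which makes phosphatidylcholine, was at 4.53 and 4.09 CPM in TN and 18.5 and 20.4 CPM in MP (log2 fold change 2.20 ± 0.14, adjusted p = 3.16e-10), and Cers6, a ceramide synthase, at 21.9 and 20.1 CPM in TN and 6.54 and 7.27 CPM in MP (log2 fold change −1.59 ± 0.12, adjusted p = 5.64e-09). Acot7, a thioesterase of long acyl-CoA, was at 14.7 and 12.4 CPM in TN and 57.8 and 62.8 CPM in MP (log2 fold change 2.18 ± 0.10, adjusted p = 2.22e-12). Smpdl3b was nearly undetected in TN, and Cers6 was lower in both MP libraries. Fatty acid oxidation genes rose in 10 and fell in 5 of 49 cases (20.4% and 10.2%), with a median of 0.01. Its members Etfb (0.44) and Decr1 (0.45) rose, and Acadm (−0.41), the medium-chain acyl-CoA dehydrogenase, fell. Among glutathione and redox genes, Ggt1, which cleaves glutathione outside the cell, was at 141 and 125 CPM in TN and 53.7 and 53.5 CPM in MP (log2 fold change −1.29 ± 0.07, adjusted p = 4.8e-10). Selenop, a selenium carrier, was at 147 and 162 CPM in TN and 63.9 and 58 CPM in MP (log2 fold change −1.33 ± 0.06, adjusted p = 3.76e-12), and Sqor, which oxidizes sulphide, at 6.97 and 6.62 CPM in TN and 0.898 and 1.14 CPM in MP (log2 fold change −2.72 ± 0.26, adjusted p = 8.96e-08). The 3 were lower in both MP libraries, and the list had 10 higher and 9 lower of 47 (21.3% and 19.1%). Transporters rose in 18 and fell in 8 of 62, led by Slc43a1, a carrier of neutral amino acids (1.19 and 1.61 against 10.1 and 9.1 CPM; log2 fold change 2.76 ± 0.25, adjusted p = 4.73e-08). Slc16a10, which carries aromatic amino acids, fell (−0.84).

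Promoters were examined because many genes moved together. RefSeq start sites on GRCm38.p6, taken as the 250 bases before to 50 after the start, matched 9513 of the 12313 genes tested by symbol. Promoters of the 477 matched genes called and more than 2-fold higher held a median of 12 CpG dinucleotides, against 21 over all matched genes, and 42.3% held fewer than 10, against 19.2%. Genes more than 2-fold lower had a median of 16. The strongly higher genes were also of lower level, with a median of 3.71 CPM against 28.4, and the lowest level quartile of all genes had a median of 13. That part was not tested. Short motifs were searched on both strands. The AP-1 motif TGANTCA occurred in 9.64% of the strongly higher promoters, 4.75% of all and 6.72% of the lowest level quartile, and in 7.34% of the promoters of genes more than 2-fold lower. The RUNX motif TGTGGTT occurred in 6.71%, 3.84%, 4.27% and 5.41% of these 4 sets, and the GATA motif AGATAA in 10.3%, 6.69%, 8.41% and 6.18%. The CpG-holding ETS motif CCGGAAG was found in 6.92%, 19.1%, 8.65% and 5.79%. For AP-1, RUNX and this ETS motif, the strongly higher and strongly lower sets thus differed from all promoters in the same direction. The T-box motif GGTGTGA was in 3.98% and 3.4% of strongly higher and of all promoters. A match is a run of letters and not a measured site.

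The other motifs, with their share of the strongly higher and of all promoters, were as follows. The longer T-box form AGGTGTGA was in 0.629% and 0.915%, and the TCF and LEF forms CTTTGAT and CTTTGAA in 1.26% and 2.47% and in 3.35% and 3.61%. The ETS core GGAAGT, which overlaps CCGGAAG where a T follows, was in 26.6% and 29.7%. The E-box forms CACGTG and CACCTG were in 6.92% and 10.1% and in 21.6% and 17.4%, the latter form also in 25.5% of promoters of genes more than 2-fold lower. The KLF form GGGTGTGG was in 4.61% and 3.75%, and GGGCGGGG in 28.7% and 32.9%. The interferon form GAAANNGAA was in 8.39% and 7.35%, NF-Y CCAAT in 35.0% and 39.4%, and the sterol form TCACNCCAC in 0.839% and 1.03%. NRF1 GCGCATGCG was in 0.629% and 3.89%, EGR GCGTGGGCG in 1.47% and 1.25%, and NF-kB GGGANTTTC in 1.26% and 0.967%. The cyclic AMP form TGACGTCA was in 1.26% and 3.3%. The STAT forms TTCNNNGAA and TTCCNGGAA, the latter a special case of the former, were in 7.13% and 6.79% and in 0.839% and 1.36%. SMAD GTCTAGAC was in 0.419% and 0.231%, FOXO TGTTTAC in 2.73% and 2.49%, and TATAAA in 9.22% and 6.98%.

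The AP-1 and RUNX motifs were also more frequent than in all promoters among genes that fell strongly. Stretches around their letters, upstream of RefSeq start sites of genes that rose strongly, are shown as examples. They are reference sequence from RefSeq promoters, 5′ to 3′ on the gene's strand, with the motif in capitals (TGANTCA or TGTGGTT, or its reverse complement), and where 2 matches overlap, as in Gpr15, they form 1 run of capitals. Gpr15 (chr16:58718932-58719085, minus strand) and Gzmb (chr14:56262348-56262406, minus strand) hold both motifs, Fgl2 (chr5:21372643-21372672, plus strand), F2rl2 (chr13:95696673-95696886, plus strand) and Ifitm10 (chr7:142372346-142372380, minus strand) AP-1 motifs, and Klrk1 (chr6:129623973-129624007, minus strand) a RUNX motif. Gzmb, the granzyme B gene, and Klrk1, the gene of the activating receptor NKG2D, are known markers added for comparison after their values were seen. By GENCODE positions, the stretches of Gpr15, Fgl2, F2rl2 and Ifitm10 lie partly or wholly inside the gene.
Gpr15: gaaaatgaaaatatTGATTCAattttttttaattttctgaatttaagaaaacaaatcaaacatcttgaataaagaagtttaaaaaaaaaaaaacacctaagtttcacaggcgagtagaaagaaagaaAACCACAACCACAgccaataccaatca
Gzmb: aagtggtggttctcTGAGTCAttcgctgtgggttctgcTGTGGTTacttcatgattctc
Fgl2: gaactcagaacgccTGAGTCAggcggcggt
F2rl2: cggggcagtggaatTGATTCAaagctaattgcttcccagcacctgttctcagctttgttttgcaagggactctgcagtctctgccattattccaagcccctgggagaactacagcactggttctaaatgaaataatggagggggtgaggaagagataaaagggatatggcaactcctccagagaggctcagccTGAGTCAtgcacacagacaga
Ifitm10: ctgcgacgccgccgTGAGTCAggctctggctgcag
Klrk1: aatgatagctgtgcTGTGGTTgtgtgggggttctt
Gzmb stood at 0.445 and 0.968 CPM in TN and 10.4 and 6.49 CPM in MP and Klrk1 at 12.2 and 9.15 CPM in TN and 177 and 189 CPM in MP, and the values of Gpr15 and F2rl2 are given above.

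Runs of called genes were also counted. Along the chromosomes there were 696 runs of 2 or more consecutive tested genes called the same way, and 53 held 4 or more. With 16.2% of genes called higher and 15.6% lower, many such runs would form in any gene order. Their expected number was not computed, so the counts carry no statement about clustering. The longest, 19 genes on chromosome 6 from 129577905 to 131388476 (GRCm38), covers the lectin receptor cluster that encodes NKG2 and Ly49 receptors and ends in Magohb and Ybx3. Its Klra and Klrc genes are close copies of each other whose reads may have been shared, and its Klr members are known markers. Magohb, of the exon junction complex, was at 8.9 and 9.9 CPM in TN and 13 and 14.8 CPM in MP (log2 fold change 0.57 ± 0.13, adjusted p = 0.00291), and Ybx3, an RNA-binding cold shock protein, at 49.7 and 51 CPM in TN and 72.5 and 80.3 CPM in MP (log2 fold change 0.62 ± 0.06, adjusted p = 2.82e-07). These neighbours outside the receptor family rose by less than 1.6-fold. Klri2 was at 0.223 and 0.108 CPM in TN and 16.4 and 14.9 CPM in MP and Klrc1 had 1 count over both TN libraries and 3849 over both MP libraries, which is 2730.0 times the TN rate (95% counting interval 489 to 108000.0). A run of 7 genes on chromosome 5, from 20893028 to 21662694, held Fgl2, a fibrinogen-like immune regulator, at 1.04 and 0.699 CPM in TN and 66.7 and 62.4 CPM in MP (log2 fold change 6.26 ± 0.15, adjusted p = 9.66e-17). It overlaps Ccdc146 on the other strand (2.57), whose call was lost without WT-TN replicate 1 (adjusted p = 0.0522). Gsap was at 11.5 and 13.5 CPM in TN and 49.9 and 49.6 CPM in MP (log2 fold change 2.00 ± 0.10, adjusted p = 6.97e-12), and Ptpn12, a phosphatase of cytoskeletal proteins, at 48.4 and 54 CPM in TN and 80.5 and 79.9 CPM in MP (log2 fold change 0.66 ± 0.06, adjusted p = 1.11e-07). A run of 7 on chromosome 18 held Dsg2, Rnf138, Rnf125 (0.41), Klhl14 (3 counts over both TN libraries and 73 over both MP libraries) and Mapre2. Changes within a run were thus unequal, from under 1.6-fold to over 50-fold on chromosome 5.

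The other 3 long runs held 6 genes each, with smaller changes. On the X chromosome, from 50841047 to 53269805, Mbnl3, Phf6 (0.24), Hprt (0.32) and Fam122b (0.34) rose together with Rap2c and Stk26. On chromosome 11, from 6427229 to 6677475, Ccm2 (−0.47), Myo1g (−0.21) and Nacad (−0.78) fell with Ramp3. On chromosome 19, from 47865534 to 53375810, Add3, an adducin of the membrane skeleton, fell at 752 and 737 CPM in TN and 554 and 555 CPM in MP (log2 fold change −0.41 ± 0.05, adjusted p = 9.8e-07), with Itprip (−0.35). Within these 3 runs several calls were lost when 1 WT library was left out: Rap2c, Stk26, H2afv, Tbrg4, Gsto2, Xpnpep1, Mxi1 and 1700001K23Rik.

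**Figure D5:**
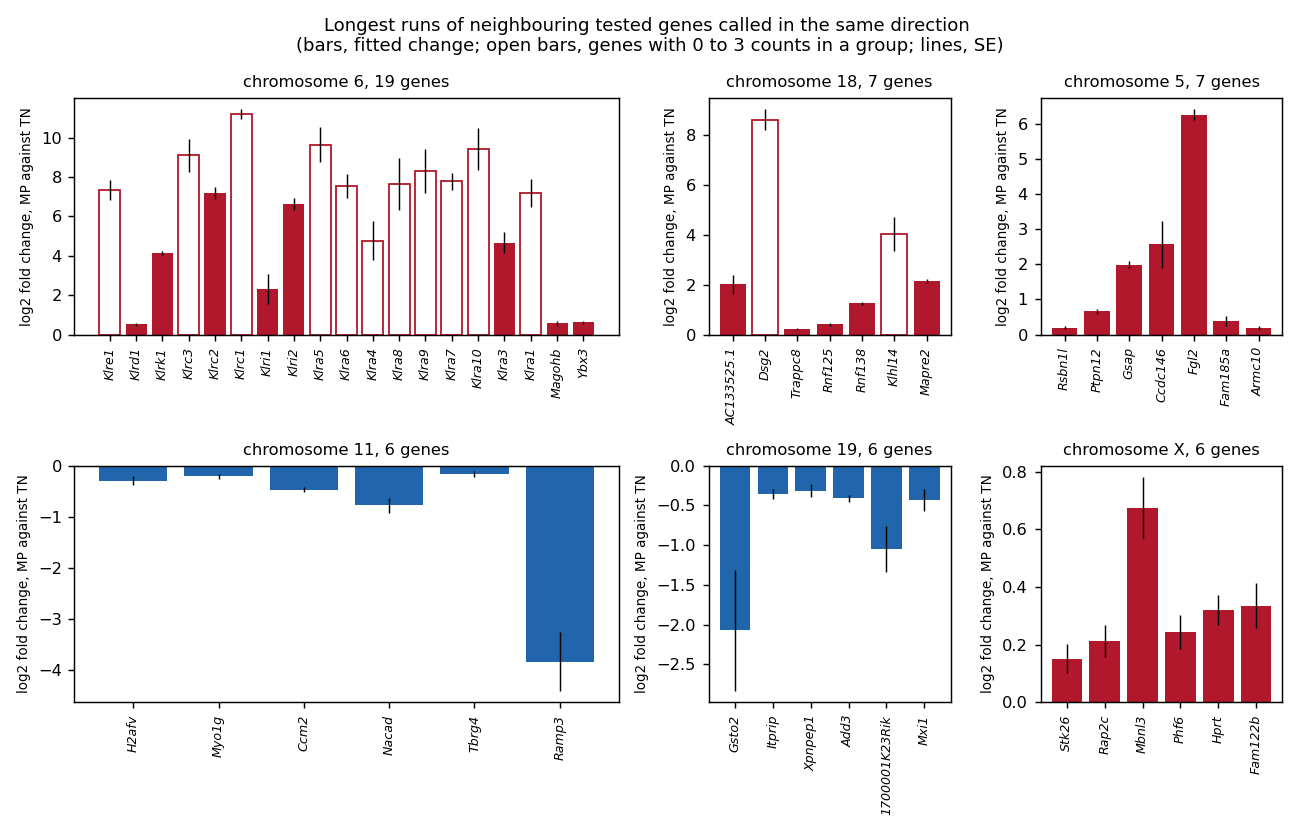
Log2 fold change of MP against TN, with its SE, for the genes of the 6 longest runs of neighbouring tested genes called in the same direction, in chromosome order. The lectin receptor run on chromosome 6 holds 19 genes, of which 16 are over 2-fold, and open bars mark genes with 0 to 3 counts in a subset, whose fitted change depends on the prior count.

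Some genes were detected only in MP at this depth. With 0 counts in both TN libraries and at least 20 in each MP library, 19 genes met the condition, and 0 met the reverse. The condition uses raw counts and is easier to meet in this direction. The MP libraries held 23386348 and 21877937 counts and the TN libraries 13479586 and 18585716. The part of depth in 19 against 0 was not tested. No count over both TN libraries allows up to 0.0936 CPM. Genes below were chosen by this condition after their values were seen, and their folds are against 3 counts over the group. Dapk2, a calcium-regulated death-associated kinase, was at 26.3 and 25.2 CPM in MP, at least 276-fold higher. Rab27b, a GTPase of secretory granules, was at 5.77 and 5.44 CPM, at least 60-fold higher, and its call was lost without WT-MP replicate 1 (adjusted p = 0.0769) or 2 (adjusted p = 0.0891). Plcd1, a phospholipase C, was at 3.21 and 2.93 CPM, at least 32.8-fold higher. Cpne7, a calcium-binding copine, was at 3.25 and 5.17 CPM, at least 44.6-fold higher. Rasl12, a Ras-like GTPase, was at 3.21 and 3.52 CPM, at least 35.9-fold higher. Apart from Dapk2, these MP levels were low, and in the mCre libraries each of the 5 had at most 4 counts in TN and at least 36 in MP. Not all of the 19 genes did so. In the mCre libraries 2010109I03Rik had 31 counts in TN and 101 in MP, and Thsd4 had 0 and 3.

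The same comparison in the mCre libraries, which share no sample with it but share the estimate of the spread, called 17.0% of genes higher and 15.5% lower. Of the 1993 genes higher in WT, 1528 were called higher there too, 76.7% of the WT list and 73.0% of the mCre list. Of the 1915 lower genes 1417 were called lower, 74.0% and 74.3%. The median log2 fold changes of the WT lists were 0.53 in WT and 0.47 in mCre for higher genes, and −0.36 and −0.32 for lower genes. Among the genes described here, Cdh1 changed by 4.36 in WT and 5.51 in mCre, Kcnj8 by 7.04 and 6.60, Gpr15 by 6.04 and 5.02, Als2cl by −2.85 and −2.08, and Ntrk3 by −2.76 and −1.84. A test of the difference between the 2 subset differences called 16 genes, 0.13% of those tested. That count was 9 without WT-MP replicate 1, 10 without WT-MP replicate 2, 9 without WT-TN replicate 2 and 32 without mCre-MP replicate 1. Of the genes ranked here for their change, Edaradd was among them, at 3.64 and 3.5 CPM in TN and 24.2 and 23.4 CPM in MP in WT, with a difference of 1.44, adjusted p = 0.02.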

How the data were processed

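RNA-seq was made from sorted CD8+ T cells of mouse spleen, with 2 libraries in each of 4 groups. Per the labels' protocols, libraries were prepared with a directional kit. Per the submitters' processing notes, Trim Galore, HISAT2 and featureCounts were used with mm10; versions, annotation release, strand setting and treatment of reads with several matches are not stated there. The deposited table holds raw counts per gene symbol, unnormalized. WT libraries held 13479586 to 23386348 counts, and low counts limit the precision of genes near 1 CPM. Intervals and limits cover counting error only (95% confidence). Since the labels do not say that libraries came from separate animals, p-values measure only the spread between these libraries, which may be technical.

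Counts were fitted with edgeR 4.0.16 (R 4.3.3; filterByExpr, TMM factors, quasi-likelihood test) over all 4 groups, which share 1 estimate of the spread, and p-values were adjusted by Benjamini-Hochberg over the 12313 genes tested, with a threshold of 0.05. The CPM given per library were computed from the deposited counts and the total counts of each library, without these factors. Positions come from GENCODE M21 (GRCm38) by symbol and promoters from RefSeq (GRCm38.p6). In simulated data 40 of 50 genes changed 1.5-fold were recovered, 48 of 50 at 2-fold and all 50 at 4-fold and at 8-fold. False calls there numbered 7, with 12100 genes tested in all. The simulated counts followed the fitted trend of the spread, without differences in spread between genes of the same level. Only genes with a mean above 1 CPM were changed, and all others were kept equal over the groups. Recovery and false calls in the real data may therefore differ. The comparison, the gene lists, the motifs and the rule for named genes were chosen with earlier results of these data known. Named genes were the 14 with the largest change each way outside 141 tested known markers, the 10 largest gains and losses in CPM, up to 5 called members of each list in each direction by smallest p, the members of the 6 longest runs, and the sort markers; others are said to be chosen after their values were seen. Counts of list members carry no test of the list. Alternatives were size factors, total counts, no filter and a stricter filter, WT libraries alone, a replicate block, DESeq2 1.42.0, limma-voom 3.58.1, edgeR's test against a 1.5-fold change, and leaving out each library. Some genes and a gene list are not reported here.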

Additional observations from a re-analysis of the deposited data

Results flagged for a closer look

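Of the genes named above, Edaradd, the adaptor of the ectodysplasin receptor, had a difference between MP and TN that itself differed between WT and mCre in edgeR's interaction test. Its log2 fold change was 2.76 in WT and 1.32 in mCre, a difference of 1.44, adjusted p = 0.02, with both libraries of MP above both of TN in WT.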

How the results depend on the processing

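The 3908 genes called in WT numbered 4036 with a replicate block. The labels do not say whether libraries with the same replicate number share animals. Deviations from the group means correlated at 0.109 between same-numbered WT-TN and WT-MP libraries and at 0.077 between mCre-TN and mCre-MP. Between a WT and an mCre group the correlations lay from −0.045 to −0.014. A shared origin of same-numbered libraries was not tested, and the main fit treats all libraries as unpaired. The test against a 1.5-fold change called 881 genes (587 higher and 294 lower) in WT, 869 in mCre and 3 for the difference between them, as its construction asks for larger changes. Leaving out 1 library gave 2879 to 3836 calls in WT (1527 to 2071 higher and 1340 to 1800 lower), 876 to 1000 calls over 2-fold against 999, and 2797 to 4187 in mCre. The 16 genes of the WT against mCre difference became 81 without an expression filter, 26 with DESeq2, 7 with limma-voom, and 9 to 32 when 1 library was left out; the cause was not tested. DESeq2 called 1615 genes higher and 1480 lower in WT, and scaling by total counts called 1866 and 2095. Of 238 named genes that were called, 225 kept their call under every alternative that tested them, the 1.5-fold test aside. Under that test 88 named genes lost their call, and 0 reversed under any alternative. The stricter filter tested 237 of the 242 named genes, and the fit of WT libraries alone tested 240. Of 1792 list counts under the other alternatives, 1716 stayed within 1.5 times. The median of all genes lay between −0.018 and 0.009 on the log2 scale over the scalings and fits tried. At this depth, 0 counts over both TN libraries allow up to 0.0936 CPM.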
